A study of Mus musculus with 8 samples.

Results

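The reads described here were those that 5 promoter viewpoints recovered on chromosomes other than their own. The study mapped the contacts of chosen promoters, the viewpoints, by chromosome conformation capture: cross-linked chromatin is cut, ligated and sequenced, and each fragment found joined to the viewpoint is counted. The viewpoints were the promoters of Paupar, a long non-coding RNA gene beside Pax6, of Pax6 itself (Pax6P0 and Pax6P1), of Sox2 and of Pou3f3. Members were all listed fragments on chromosomes 4 to 19, which hold none of the viewpoints (chromosome 2 for Paupar, Pax6P0 and Pax6P1, chromosome 3 for Sox2, chromosome 1 for Pou3f3). Of the 420163 distinct fragments in the 40 files (5 viewpoints in each of 8 libraries), 233810 lay on these 16 chromosomes, in 393 fixed bins of 5 Mb. They carried 785079 of 2540682 reads, or 30.9%.

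The libraries came from mouse and fall into 4 groups of 2 replicates. ES libraries were from embryonic stem cells grown on gelatin with serum and leukemia inhibitory factor. NSC libraries were from cortical neural stem cells of E14.5 embryos, and neuron libraries from cortical neurons that were differentiated from such stem cells in culture. N2a libraries were from an established mouse neuroblastoma cell line. No treatment or genetic change separates the groups in the labels, and nothing says that replicates came from separate cultures or animals, so p-values measure only the spread between these libraries, which may be technical. The files hold contact counts and no expression values, so cell identity was not checked against markers.

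In conformation capture most reads fall near the viewpoint, because each chromosome fills its own territory of the nucleus. Reads on other chromosomes come from rarer contacts between territories, from ligation of unconnected molecules and from fragments that are recovered independently of the viewpoint. Pax6, Sox2 and Pou3f3 encode transcription factors of the PAX, SOX and POU families, which act in stem cells and in the developing nervous system, and relatives of each are spread over the genome.

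A first view of what was counted comes from 3 promoter windows that lay partly or wholly in fragments listed again and again. They are shown because the fragment at Pou5f2, a POU family gene known for its expression in male germ cells, was listed in 39 of the 40 files, that at Rbm11, which encodes a splicing regulator, in all 40, and that at Smyd4, which encodes a SET and MYND domain protein, in 32. The last of these fragments ends before the start of Smyd4 and lies in Rpa1, the neighbouring gene on the other strand, which encodes a subunit of a single-stranded DNA binding protein, and it also holds 29 bases of the Rpa1 promoter window. The sequences are RefSeq's for GRCm38.p6, the same assembly as the mm10 of the files, from 250 bases before to 50 after the gene's start and written 5′ to 3′ on the gene's strand. Capitals mark the bases inside the listed fragment.
Pou5f2, chr13:78024652-78024951, plus strand: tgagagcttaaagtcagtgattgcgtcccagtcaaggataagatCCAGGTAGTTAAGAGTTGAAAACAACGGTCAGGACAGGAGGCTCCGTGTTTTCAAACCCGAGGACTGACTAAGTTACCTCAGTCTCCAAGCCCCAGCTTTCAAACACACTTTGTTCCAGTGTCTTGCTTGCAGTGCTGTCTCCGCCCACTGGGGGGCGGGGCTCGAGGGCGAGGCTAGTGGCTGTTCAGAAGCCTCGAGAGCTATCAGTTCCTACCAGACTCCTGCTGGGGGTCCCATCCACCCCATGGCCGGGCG
Rbm11, chr16:75592641-75592940, plus strand: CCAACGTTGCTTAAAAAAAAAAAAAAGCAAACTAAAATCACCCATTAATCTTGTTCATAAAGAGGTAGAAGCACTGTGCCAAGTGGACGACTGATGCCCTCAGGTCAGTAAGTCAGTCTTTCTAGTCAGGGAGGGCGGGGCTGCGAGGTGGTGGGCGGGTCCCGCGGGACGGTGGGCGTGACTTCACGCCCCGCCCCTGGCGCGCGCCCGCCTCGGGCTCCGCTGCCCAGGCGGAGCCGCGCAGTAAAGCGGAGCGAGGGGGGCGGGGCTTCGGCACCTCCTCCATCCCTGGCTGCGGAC
Smyd4, chr11:75348183-75348482, plus strand: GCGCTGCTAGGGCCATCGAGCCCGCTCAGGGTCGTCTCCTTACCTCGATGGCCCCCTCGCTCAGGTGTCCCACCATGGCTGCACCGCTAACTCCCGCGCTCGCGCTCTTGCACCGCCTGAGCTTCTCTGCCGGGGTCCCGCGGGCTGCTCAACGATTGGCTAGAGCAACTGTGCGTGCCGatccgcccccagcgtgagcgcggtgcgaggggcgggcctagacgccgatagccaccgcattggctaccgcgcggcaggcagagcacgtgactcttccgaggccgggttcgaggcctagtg
The fragments at Pou5f2, Rbm11 and Smyd4 had 180, 261 and 81 reads over all files. At Pou5f2 and Smyd4 the border of the fragment fell inside the letters GATC. Those letters read the same on both strands, and they spanned the start of the fragment at all 1011 fragment starts that fell inside a promoter window. GATC occurred in 48.0% of the 32851 RefSeq promoter windows of this length.

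Libraries held 110677 to 574791 listed reads each, and a file held 6151 to 51062 reads on chromosomes 4 to 19. In a file, 52.4% to 79.1% of the fragments had a single read. Fragments came in runs of neighbours, as 70.1% to 96.6% of them touched another listed fragment, and a run, counted as 1 event in the alternatives, had 3.22 to 7.69 reads on average. Fragments with at least 10 reads carried 9.01% to 44.5% of a file's reads. A file is therefore a sample of 1897 to 8242 such runs, and that number limits the precision of every share below.

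The share of reads that fell on chromosomes 4 to 19, out of those plus the reads on the viewpoint's own chromosome, differed between viewpoints of one library and between libraries, but not detectably between cell types. Over 8 libraries it was 37.5% ± 6.31 (SD, n = 8) for Pax6P1, 35.1% ± 6.83 for Pax6P0, 33.6% ± 4.53 for Sox2, 31.6% ± 6.54 for Paupar and 29.9% ± 6.10 for Pou3f3. Pax6P1 lay above Pou3f3 in 8 of 8 libraries, by 7.52 percentage points on average, and above Paupar in 8 of 8, by 5.87 points. Of the 10 viewpoint pairs, 5 passed an exact two-sided sign-flip permutation test within libraries after Benjamini-Hochberg adjustment: those 2 pairs and Pax6P0 above Pou3f3 (adjusted p = 0.0260 each, unadjusted 0.00781, the smallest that 8 libraries allow), Pax6P0 above Paupar (0.0391) and Pax6P1 above Sox2 (0.0469). With 7 libraries the test kept 4 pairs without ES 2, NSC 1 or N2a 1 and 0 pairs without ES 1, NSC 2, neuron 1, neuron 2 or N2a 2. The smallest possible p is larger with 7 libraries, so whether pairs at it pass depends on how many share it. On leaving out a library, Pax6P1 minus Pou3f3 stayed at 7.17 to 7.94 points and Paupar minus Pax6P1 at -6.44 to -5.42. When runs were counted in place of reads, 2 pairs passed (Paupar below Pax6P0 and below Pax6P1, adjusted p = 0.0391 each). The excess of Pax6P1 over Pou3f3 was then 0.86 points (adjusted p = 0.686), and Pax6P1 lay 2.52 points below Sox2 (adjusted p = 0.424).

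**Figure D1:**
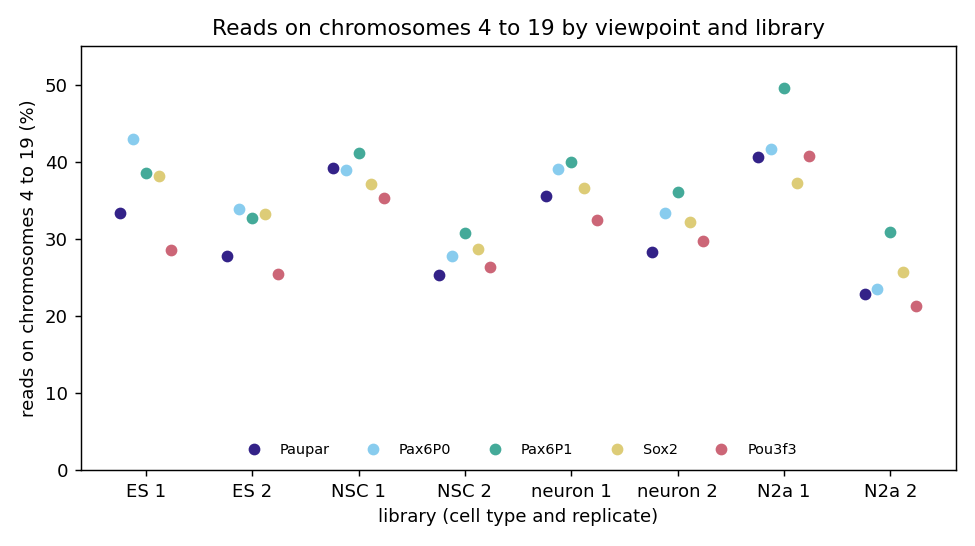
Share of reads on chromosomes 4 to 19 (percent, vertical axis) in each of the 8 libraries (horizontal axis), with a point for each viewpoint. Replicate 1 of each cell type lies above its replicate 2 for every viewpoint, and the range is 21.3% to 49.6%.

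With the 5 viewpoints of a library summed, the share was 36.8% and 30.5% in ES 1 and 2, 38.4% and 27.7% in NSC, 36.6% and 31.9% in neurons, and 42.3% and 24.5% in N2a. The replicate labelled 1 was the higher one in each of the 4 cell types, and the groups overlapped throughout. An exact permutation test over the ways to divide 8 libraries into 4 pairs gave p = 1 (smallest possible p = 0.00952), so no difference between cell types was detectable against the spread of replicates. Counted as runs, the shares were 52.8% to 62.4%, with p = 0.762 in the same exact permutation test.

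Over the 16 chromosomes the mean share of reads followed length (Spearman 0.92 over 16 chromosomes, a description, since all share the same libraries). The share divided by the share of length ran from 0.84 on chromosome 14 to 1.22 on chromosome 8. N2a was the cell type whose chromosomes stood apart. Compared with the mean of the other 3 cell types, 10 of 16 chromosomes (62.5%) differed in N2a at an adjusted p under 0.05 in edgeR's quasi-likelihood test with Benjamini-Hochberg adjustment. Of these, 4 were higher (25%) and 6 lower (37.5%), and shares sum to a fixed total, so a rise on one chromosome lowers the rest.

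Chromosome 8 took 11.1% and 9.54% of the reads in the N2a libraries. It took 7.08% and 7.28% in ES, 7.77% and 7.25% in NSC, and 7.00% and 8.40% in neurons. Both N2a libraries lay above all 6 others, and the fitted change was 0.47 on the log2 scale (SE 0.068, edgeR adjusted p = 3.4e-08). Chromosome 6 took 9.61% and 9.07% in N2a against 7.33% to 8.34% elsewhere, with a change of 0.29 (SE 0.068, edgeR adjusted p = 0.00036). Chromosomes 10 and 15 were the other 2 that rose, by 0.23 and 0.18 (edgeR adjusted p = 0.0045 and 0.022).

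The largest falls in N2a by fitted change were on chromosomes 14 and 17. Chromosome 14 took 4.29% and 4.82% of reads in N2a against 5.20% to 6.15% elsewhere, a log2 change of -0.33 (SE 0.072, edgeR adjusted p = 0.00017). Chromosome 17 took 4.18% and 3.72% against 4.32% to 5.46%, a change of -0.31 (SE 0.072, edgeR adjusted p = 0.00026). Chromosome 4 took 6.81% and 7.30% against 7.72% to 9.14%, a change of -0.28 (SE 0.071, edgeR adjusted p = 0.00060). Chromosomes 9, 16 and 18 fell by 0.21, 0.18 and 0.18 on the log2 scale (edgeR adjusted p = 0.011 to 0.024). In all 10 of these chromosomes both N2a libraries lay outside the range of the 6 others.

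**Figure D2:**
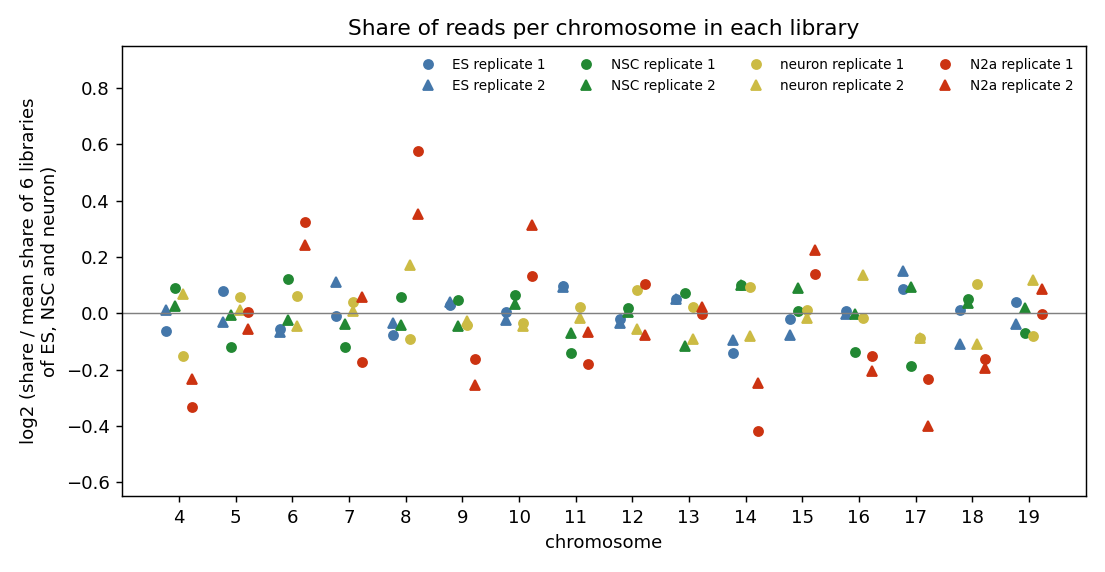
Share of reads per chromosome in each library, as log2 of its ratio to the mean share of the 6 ES, NSC and neuron libraries (vertical axis), for chromosomes 4 to 19 (horizontal axis), circles for replicate 1 and triangles for replicate 2. Both N2a points lie above all others on chromosomes 6, 8, 10 and 15 and below all others on 4, 9, 14, 16, 17 and 18.

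N2a 1 also had the most reads per run of any library, 6.69 against 3.85 to 5.37 in the 7 others. In shares of runs, where each event counts once, chromosome 8 took 8.91% and 8.03% in N2a against 6.61% to 6.99% elsewhere, a ratio of means of 1.25 against 1.38 in reads. Chromosome 6 took 8.49% and 8.27% of runs in N2a against 7.62% to 8.12% elsewhere. Chromosome 14 took 5.17% and 5.78% of runs in N2a against 5.53% to 6.17%, so that there the groups overlapped, and its call was lost (edgeR adjusted p = 0.061). Chromosome 18 lost its call with runs too (0.077), and chromosomes 9, 16 and 18 lost theirs with TMM factors (edgeR adjusted p = 0.142, 0.226 and 0.226). The calls of chromosomes 4, 6, 8 and 17 stood in all 15 alternatives run for them. Without N2a 2 the 10 calls became 5, the lowest count on leaving out a library. Chromosome 10 lost its call without N2a 2 (log2 change 0.13), and 15 without ES 1, ES 2 or N2a 2. Chromosome 9 lost its call without N2a 2, 16 without ES 1, ES 2, NSC 2, neuron 2 or N2a 2, and 18 without ES 1, neuron 1 or either N2a library.

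The direction of the N2a difference was the same from all 5 viewpoints on chromosomes 4, 6, 8, 10, 14, 17 and 18, and not on the other called chromosomes 9, 15 and 16. At chromosome 8 the log2 ratio of the mean share in N2a to that in the 6 other libraries was 0.45 from Pou3f3, 0.49 from Sox2, 0.51 from Pax6P1, and 0.44 from both Paupar and Pax6P0. Both N2a files lay above all 6 others from 4 of these viewpoints. From Pou3f3 the N2a files held 8.07% and 11.7%, and the others up to 8.90%. Chromosome 6 was higher in N2a from all 5 viewpoints (0.07 to 0.45) and without overlap from 4, all but Paupar. Chromosome 14 was lower from all 5 (-0.16 to -0.48) and without overlap from Pax6P0, Pax6P1 and Pou3f3. Among all 16 chromosomes, Pax6P0 had the most without overlap, 4 with both N2a files above the 6 others and 5 below. The counts above and below were 1 and 3 for Pou3f3, 1 and 2 for Paupar, and 2 and 2 for Sox2 and for Pax6P1. Chromosome 15, called higher, had a log2 ratio of -0.26 from Sox2 and 0.16 to 0.44 from the others. Chromosome 9, called lower, had 0.07 from Paupar, and chromosome 16, called lower, had 0.04 from Sox2. The 5 files of a library share its chromatin, so they are no separate replicates. The interaction of viewpoint and cell type passed on 0 of 16 chromosomes (0%) in edgeR, with 0 at an unadjusted p under 0.05 (DESeq2 was not run for it).

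ES, NSC and neurons were each set against a mean that includes N2a, and not against each other, and less was called. In ES, chromosome 17 was higher (5.22% and 5.46%, log2 change 0.26, SE 0.069, edgeR adjusted p = 0.0050) and chromosome 8 lower (-0.23, SE 0.070, edgeR adjusted p = 0.014) than the mean of the other 3 cell types, which includes N2a. That is 2 of 16 chromosomes (12.5%), and leaving out either ES library left 0, leaving out neuron 2 or N2a 1 left 1, and leaving out NSC 2 or N2a 2 gave 3 or 4. In NSC, chromosome 14 was higher (6.15% and 6.14%, log2 change 0.25, SE 0.070, edgeR adjusted p = 0.013), which was 1 of 16 (6.25%) and was lost without either NSC library or either ES library. Without neuron 2 the count was 2. On chromosome 17 NSC 2 took 5.24%, between the ES libraries, and on chromosome 8 neuron 1 took 7.00%, below both. On chromosome 14 neuron 1 took 6.11%, beside the NSC libraries. In neurons 0 of 16 chromosomes passed (0%) in edgeR, with 1 at an unadjusted p under 0.05, and 0 in DESeq2. The test of any difference among the 4 cell types passed on 6 of 16 (37.5%): chromosomes 4, 6, 8, 10, 14 and 17. Between viewpoints 0 of 16 chromosomes passed (0%) in edgeR, with 6 at an unadjusted p under 0.05, and 0 in DESeq2. With runs counted 6 passed, and 2 did without neuron 1 or without N2a 2.

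At 5 Mb resolution 392 bins had enough reads to be tested between libraries. Against the other cell types N2a differed in 15 of 392 (3.83%), 9 higher (2.3%) and 6 lower (1.53%). With runs counted 16 bins were called, 5 of them among those 15, and without ES 1, ES 2 or neuron 2 the count was 7, 8 or 9. The test of any difference among cell types passed in 7 (1.79%). ES, NSC and neurons each differed from the rest in 0 bins (0%), with 21, 22 and 16 at an unadjusted p under 0.05, and DESeq2 also called 0 in each. The spread between replicates of a bin's share was large, a biological coefficient of variation of 26.5% in edgeR's fit, against 5.54% for a chromosome.

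Of the 9 bins that rose in N2a, 5 were on chromosome 8 and 3 on chromosome 6. The bin at 45 to 50 Mb of chromosome 8 took 0.612% and 0.786% of reads in N2a, and 0.239% to 0.467% in the 6 others (log2 change 1.28, SE 0.28, edgeR adjusted p = 0.00077). The next bin, at 50 to 55 Mb, took 0.487% and 0.424% against 0.156% to 0.269% (1.26, SE 0.29, edgeR adjusted p = 0.0012). The bin at 125 to 130 Mb took 0.654% and 0.460% against 0.156% to 0.321% (1.20, SE 0.28, edgeR adjusted p = 0.0018). N2a lay above the others in mean share from all 5 viewpoints in the bins at 50 to 55 and 125 to 130 Mb. The bin at 125 to 130 Mb lost its call without ES 2 or N2a 1 (edgeR adjusted p = 0.051 and 0.089). In the bin at 45 to 50 Mb N2a lay above from 4 viewpoints, the exception being Sox2 with 0.292% against 0.378%.

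Tenm3, a teneurin that acts in synapse formation, held the leading N2a fragment of the bin at 45 to 50 Mb (chromosome 8, 48724638 to 48724800), with 82 reads in all files, 6.09% of the bin's N2a reads, in 2 files. A fragment with 49 reads in 1 file led the bin at 50 to 55 Mb. No single fragment held over 8.78% of the N2a reads of a bin that rose and is named here. With runs counted in place of reads the 4 named chromosome 8 bins lost their calls (log2 changes 0.36 to 0.38, edgeR adjusted p = 0.250 to 0.388).

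Higher shares in N2a were not limited to the called bins of chromosome 8. The fitted N2a change was above 0 in 23 of its 26 bins, with a median of 0.59 on the log2 scale, beside 185 of 392 bins and a median of -0.05 over all tested bins. Both N2a libraries lay above the 6 others in 11 of the 26 bins of chromosome 8, beside 32 of 392 bins (8.16%) in all. In shares of runs both N2a libraries lay above in 10 of the 26, and the median log2 ratio was 0.34. On chromosome 6 the fitted change was above 0 in 21 of 30 bins (median 0.30), and on chromosome 10 in 20 of 27 (0.17). In runs the median log2 ratio was 0.08 on chromosome 6 and 0.07 on chromosome 10. Over all tested bins the median in runs was 0.0049. Both N2a libraries lay above the others in 7 of the 30 bins of chromosome 6 in reads and in 2 in runs, and in 5 and 4 of the 27 of chromosome 10. In runs they did so in 4 of 25 bins of chromosome 13, 4 of 21 of chromosome 15, and 0 or 1 of each remaining chromosome.

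**Figure D3:**
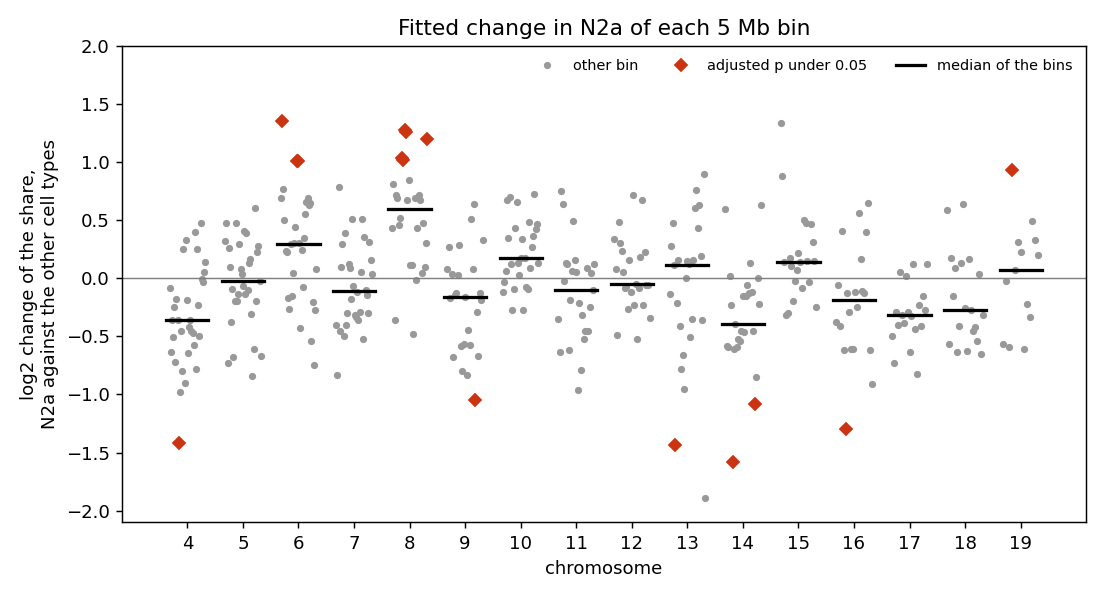
Fitted log2 change of the share of reads in N2a against the mean of the other 3 cell types (vertical axis) for each of 392 bins of 5 Mb, by chromosome (horizontal axis) and in order along it. Black lines mark the median of a chromosome's bins and red diamonds the 15 bins with an edgeR adjusted p under 0.05. Chromosome 8 has the highest median, 0.59, and chromosome 14 the lowest, -0.40.

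The bin with the smallest p of the N2a contrast was on chromosome 6. At 5 to 10 Mb it took 0.681% and 0.354% of reads in N2a and 0.140% to 0.351% in the 6 others (log2 change 1.35, SE 0.28, edgeR adjusted p = 0.00057). The N2a libraries differed from each other, and the lower one lay next to NSC 1. Without N2a 1 the change was 0.81 (edgeR adjusted p = 0.181). The bin at 35 to 40 Mb of chromosome 8 was of the same kind, with 0.619% and 0.277% in N2a against 0.164% to 0.270%. Without N2a 1 its change of 1.03 became 0.34 (edgeR adjusted p = 0.668), and without ES 1 its edgeR adjusted p was 0.134.

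The 6 bins that fell in N2a lay on 5 chromosomes. At 25 to 30 Mb of chromosome 14 N2a took 0.082% and 0.119% of reads, and the 6 others 0.210% to 0.365% (log2 change -1.58, SE 0.35, edgeR adjusted p = 0.00077). At 20 to 25 Mb of chromosome 13, where 141 protein-coding genes start, it took 0.103% and 0.110% against 0.216% to 0.487% (-1.44, SE 0.35, edgeR adjusted p = 0.0022). At 40 to 45 Mb of chromosome 4, with 103 such genes, it took 0.105% and 0.082% against 0.198% to 0.348% (-1.42, SE 0.35, edgeR adjusted p = 0.0032). The mean share in N2a lay below that of the others from all 5 viewpoints in these 3 bins and in the named bins of chromosomes 16 (25 to 30 Mb) and 9 (95 to 100 Mb). The chromosome 4 bin lost its call without neuron 2 or N2a 2, the chromosome 16 bin without ES 1, neuron 2 or N2a 2, and the chromosome 9 bin without any library but NSC 2 and neuron 1. Both N2a libraries lay below the 6 others in 41 of the 392 bins (10.5%).

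The counts of called bins depended on single libraries. The 7 bins of the test among cell types became 0 without ES 1 or ES 2, 1 without N2a 1, 4 without N2a 2 or neuron 2, and 6, 8 and 10 without NSC 1, NSC 2 and neuron 1. The 15 N2a bins became 7 without ES 1, 8 without ES 2, 9 without neuron 2, 21 without N2a 1 and 13 to 15 without any of the others. The bins of chromosome 13 (20 to 25 Mb) and 14 (25 to 30 Mb) kept their N2a call in all 16 alternatives run for them.

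Bins with more genes had higher shares. Over 361 inner bins (without the first and last of each chromosome) the mean share ran from 0.091% to 0.893%, with a median of 0.264%. Its Spearman correlation with the number of protein-coding genes that start in the bin was 0.43 over all files. The correlation was 0.49 for the ES mean, 0.32 for NSC, 0.29 for neurons and 0.11 for N2a. These describe the same 361 bins of libraries that differ in depth and were not tested against each other. The 90 bins with the most genes (59 to 186) had a median share of 0.291% and 0.299% in the ES libraries, 0.267% and 0.280% in NSC, 0.271% and 0.268% in neurons, and 0.264% and 0.253% in N2a. The 91 bins with the fewest genes (1 to 16) had 0.216% to 0.257% in all 8 libraries, so that in every library the gene-rich bins had the higher median. The mean share followed the number of distinct listed fragments in a bin more closely (Spearman 0.75 over the 361 bins). Bins with the most genes held a median of 674 such fragments, and those with the fewest 594. The part of fragment number in the relation to genes was not tested.

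The 5 highest bins over the 40 files were at 10 to 15 Mb of chromosome 8 (0.893%), 120 to 125 Mb of chromosome 4 (0.578%), 115 to 120 Mb of chromosome 8 (0.516%), and 20 to 25 and 150 to 155 Mb of chromosome 4 (0.417% and 0.400%). The first 4 of these hold the 4 sites with the most reads among those listed in all 40 files, described below. The 5 lowest were the first bins of chromosomes 14, 13, 4, 7 and 16 (0.030% to 0.090%). First bins had a median share of 0.106%, and mouse chromosomes begin with a centromere whose repeats cannot be mapped.

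Comparing viewpoints within libraries, 388 bins were tested and 5 differed between the viewpoints (1.29%). Pou3f3 differed from the other 4 viewpoints in 5 bins (1.29%), 3 higher (0.773%) and 2 lower (0.515%), and Pax6P1 in 2, both higher (0.515%). Paupar, Pax6P0 and Sox2 differed in 0 (0%) by edgeR, with 19, 27 and 42 at an unadjusted p under 0.05, and in 0, 1 and 2 by DESeq2. No bin passed the interaction of viewpoint and cell type in edgeR (0%, 20 at an unadjusted p under 0.05), and 5 did in DESeq2. Without N2a 2 it passed in 4.

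The viewpoint difference with the smallest p was at 120 to 125 Mb of chromosome 4, the bin with Pou3f1. From Pou3f3 it took 0.855% and 1.30% of reads in the ES libraries, 1.97% and 1.52% in NSC, 0.726% and 1.69% in neurons, and 0.950% and 2.12% in N2a. From the other viewpoints it took 0.407% ± 0.174 (SD, n = 8) for Sox2, 0.379% ± 0.166 for Paupar, 0.361% ± 0.061 for Pax6P0 and 0.353% ± 0.107 for Pax6P1. Pou3f3 was the highest of the 5 viewpoints in 8 of 8 libraries, and the change was 1.88 on the log2 scale (SE 0.18, edgeR adjusted p = 4.9e-17). Its leading fragment, at chromosome 4, 124657117 to 124658696, overlaps Pou3f1 and held 41.1% of the bin's Pou3f3 reads. It had 57 to 169 reads in every library. The site's 3 fragments had 716, 618 and 68 Pou3f3 reads, and together they held 1402 of the bin's 1744. Without fragments that at least 20 files list, a choice made after the data were seen, the change of the bin was 0.05 (edgeR adjusted p = 0.987), and with runs counted it was 0.31 (edgeR adjusted p = 0.318).

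The bin at 20 to 25 Mb of chromosome 4, which holds Pou3f2, was the second of this kind. From Pou3f3 it took 0.696% ± 0.268 (SD, n = 8) against means of 0.282% to 0.409% from the other viewpoints, and Pou3f3 was the highest in 5 of 8 libraries (log2 change 1.02, SE 0.27, edgeR adjusted p = 0.020). A fragment in Pou3f2 (22487085 to 22487280) held 32.5% of these reads, 23 to 53 in each library. The 4 fragments of the site together held 538 of the bin's 859 Pou3f3 reads. The call was lost without ES 2, NSC 1 or NSC 2 (edgeR adjusted p = 0.107 to 0.149), without the fragment with the most reads in each file and bin (0.277) and without recurrent fragments (0.846).

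The other Pou3f3 bins had no such site. At 10 to 15 Mb of chromosome 15 Pou3f3 took 0.514% ± 0.240 (SD, n = 8) and was highest in 5 of 8 libraries (log2 change 1.13, SE 0.29, edgeR adjusted p = 0.020). Its leading fragment had 29 reads, all in ES 1, and without ES 1 the edgeR adjusted p was 0.218. At 40 to 45 Mb of chromosome 15 Pou3f3 took 0.118% ± 0.050 against means of 0.277% to 0.319% (log2 change -1.32, edgeR adjusted p = 0.020), and the call was lost without ES 1, NSC 1, NSC 2 or neuron 1. At 90 to 95 Mb of chromosome 4 it took 0.096% ± 0.045, with 0.127% ± 0.064 from Sox2 and 0.267% to 0.308% from the 3 viewpoints on chromosome 2 (log2 change -1.30, edgeR adjusted p = 0.037). That call was lost without ES 1, NSC 1, NSC 2, neuron 1, neuron 2 or N2a 2. The fifth bin of the test among viewpoints, at 145 to 150 Mb of chromosome 6, was higher from Paupar (0.391% ± 0.153) and Pax6P1 (0.413% ± 0.178) than from the others (0.162% to 0.184%, edgeR adjusted p = 0.024). It lost its call without NSC 1, NSC 2, neuron 1 or neuron 2.

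Pax6P1 was higher at 100 to 105 Mb of chromosome 4, with 0.645% ± 0.351 (SD, n = 8) against means of 0.222% to 0.277% from the others (log2 change 1.30, SE 0.30, edgeR adjusted p = 0.0084). It was the highest viewpoint there in 7 of 8 libraries. Its leading fragment lies in Dab1, which encodes an adaptor of the reelin signal in migrating neurons (103636974 to 103637240). That fragment had 26 and 19 Pax6P1 reads in ES, 17 and 23 in NSC, 22 and 20 in neurons, and 21 and 47 in N2a. All 8 Pax6P1 libraries listed it, and it had 201 reads over all 40 files, of which 195 were from Pax6P1 and the rest from 2 Pax6P0 files. Without the fragment with the most reads in each file and bin the call was lost (edgeR adjusted p = 0.059), and it was lost without NSC 2 or neuron 2 (0.072 and 0.216).

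The second Pax6P1 bin, at 10 to 15 Mb of chromosome 6, took 0.478% ± 0.233 (SD, n = 8) against means of 0.200% to 0.250% (log2 change 1.10, SE 0.29, edgeR adjusted p = 0.037). Pax6P1 was highest in 5 of 8 libraries. Its leading fragment (11758399 to 11758773), 141599 bases from Ndufa4, had 109 reads in 6 Pax6P1 libraries and in no file of another viewpoint, and 59 of them were in N2a 2. The call was lost without ES 1, NSC 1, NSC 2, neuron 1, neuron 2 or N2a 2 (edgeR adjusted p = 0.065 to 0.334). The 5 bins that differed between viewpoints became 1 without NSC 2, neuron 1 or neuron 2, 3 without ES 1, ES 2 or NSC 1, 7 without N2a 1 and 5 without N2a 2. The Pou3f3 bins became 2 without ES 1, NSC 1 or NSC 2, and the Pax6P1 bins 1 or 0 without any library but ES 2 and N2a 1.

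The tests between viewpoints take the 8 libraries as independent, and single fragments did not behave that way. A pair of files of one viewpoint shared a median of 11.2% of the fragments of the smaller file between replicates and 9.76% between cell types. Files of different viewpoints shared 1.62% in the same library and 1.64% in different libraries. Over fragments listed in fewer than 20 files, one with 10 to 19 reads was listed in another library of the same viewpoint in 6.27% of cases, in another viewpoint of the same library in 0.333%, and elsewhere in 0.246%. Where it was listed again it had a median of 1 read, except 2 reads elsewhere for fragments with 40 or more. The share listed again was 7.92% for fragments with 1 read and 10.2% for those with 40 or more. When each fragment of a viewpoint was kept only in the library where it had the most reads, an alternative chosen after the data were seen, 0 bins differed between viewpoints in edgeR, with 16 at an unadjusted p under 0.05 (DESeq2 was not run on this alternative). The N2a contrast then called 17 bins, 14 of them shared with the 15 above. This alternative also takes out reads of any contact that recurs in several libraries of a viewpoint. Its count by viewpoint therefore cannot tell shared fragments from repeated contacts. The source of the shared fragments was not tested, and the p-values between viewpoints are too small to the extent that they are shared.

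**Figure D4:**
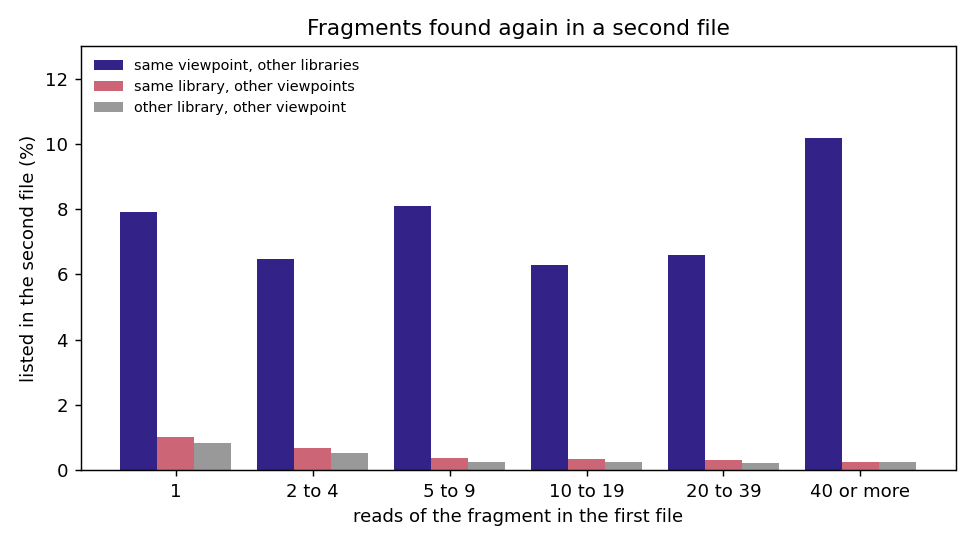
Share of a file's fragments that a second file also lists (percent, vertical axis, bars from 0), by their reads in the first file (horizontal axis), over fragments listed in fewer than 20 of 40 files. Files of the same viewpoint share 6.27% to 10.2%, and files of other viewpoints up to 1.03%.

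Bins showed less of this. The Spearman correlation of shares over 361 inner bins averaged 0.15 between replicates of one viewpoint (20 pairs), 0.11 between viewpoints of one library (80 pairs), 0.11 between one viewpoint's files of different cell types (120 pairs) and 0.08 between files with neither in common (480 pairs). With viewpoints summed it averaged 0.33 between replicate libraries (4 pairs) and 0.24 between libraries of different cell types (24 pairs). These are descriptions over bins of the same genome.

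Most fragments were listed once: 181696 of 233810 (77.7%) appeared in a single file. At the other end 88 fragments appeared in at least 20 of the 40 files, 7 of them in exactly 20, while 7 more appeared in 19. The 88 formed 51 sites (fragments within 5000 bases joined), of which 32 overlapped a RefSeq gene, and they held 0.443% to 4.00% of a file's reads (median 1.91%). Reads of a site are added over its fragments. Neighbouring fragments often had equal counts, so a sum may hold the same reads more than once, which was not tested. Read sums of bins, chromosomes and files add the same fragments and share this limit. Only 6 fragments were listed in all 40 files, at 5 sites.

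The site with the most reads among those 5 lay on chromosome 8 at 10960473 to 10960705, outside genes and 23976 bases from Irs2, which encodes an insulin receptor substrate. Its 3 adjacent fragments had 1243, 1243 and 1043 reads, and the site total of 3529 adds them up. Of this total 940 were from Sox2, 741 from Pax6P0, 708 from Paupar, 610 from Pax6P1 and 530 from Pou3f3. The levels per 10000 use the same sum. The median per 10000 reads ran from 45.5 for Pax6P1 to 61.2 for Sox2, and the ranges over libraries overlapped. Summed over viewpoints it had 27.6 and 69.6 reads per 10000 in ES, 67.2 and 59.9 in NSC, 38.7 and 80.8 in neurons, and 20.8 and 46.5 in N2a. In each cell type the replicate with more reads on chromosomes 4 to 19 had the lower level, and the ranges of the cell types overlapped. The part of depth in this was not tested.

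The site on chromosome 8 at 116546603 to 116548276, 20447 bases from Cdyl2, which encodes a chromodomain protein, had 1100 reads on 1 fragment. Its median per 10000 was 13.5 to 16.4 by viewpoint. The fragment at Rbm11 shown above had 2 to 14 reads in each of the 40 files, with medians of 2.37 to 4.51 per 10000. Apart from the sites at POU genes, the others in at least 36 files numbered 6. They lay in Cdh12, a cadherin gene (39 files), in Cep112, a centrosomal protein gene, and in Slco1a4, an organic anion transporter gene (36 files each), and outside genes with Plpp3 (38 files, 114 reads), Tmprss11f (37 files, 347 reads) and Tbx3 (36 files, 282 reads) as the nearest coding genes. All were listed from all 5 viewpoints.

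The remaining sites in all 40 files were 2 POU genes. Pou3f1 and Pou3f2 encode close relatives of the factor encoded by Pou3f3, which act in glia and neurons. The gene families were looked at after these fragments were seen, so counts are given without a test. Reads over a gene are added over all its fragments, and may hold the same reads more than once where neighbouring fragments have equal counts. Of the 12 genes of the POU family counted on chromosomes 4 to 19, 5 had reads in at least 30 files: Pou3f1 and Pou3f2 (40), Pou5f2 (39), Pou2f2 (36) and Pou5f1 (35). Over all 16696 protein-coding genes of these chromosomes 115 did (0.689%), and over the 6091 shorter than 10 kb 5 did (0.0821%). Among 13 SOX genes Sox5 did (30 files), and among 5 PAX genes 0 did.

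From Pou3f3, Pou3f1 (chromosome 4, 124657646 to 124660655) had 123 and 104 reads in ES, 143 and 196 in NSC, 111 and 204 in neurons, and 204 and 324 in N2a. From the other viewpoints it had 4 to 67 reads per file, and no file had 0. Per 10000 reads, Pou3f3 lay between 50.1 and 182, and the highest value of the others was 34.4, from Paupar, so the ranges did not overlap. Within a library the level from Pou3f3 was 9.34 ± 4.69 times (SD, n = 8) the mean of the other 4 viewpoints, from 6.80 in neuron 1 to 20.8 in NSC 1.

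Pou3f2 (chromosome 4, 22482095 to 22488366) had 71 and 66 reads from Pou3f3 in ES, 49 and 74 in NSC, 68 and 69 in neurons, and 50 and 109 in N2a. The other viewpoints gave 5 to 44 reads per file. The level from Pou3f3 was 3.69 ± 0.828 times (SD, n = 8) their mean, from 2.58 in N2a 1 to 5.01 in ES 2. For both genes the ratio was above 2.5 in every library.

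This order was not seen at Pou5f2 and Pou5f1, and at Pou2f2 Pou3f3 was highest but its range overlapped those of the others. Pou5f2 (chromosome 13, 78024902 to 78026296) had 29 reads from Pou3f3, 46 from Sox2, 53 from Paupar, 46 from Pax6P0 and 50 from Pax6P1. Pou5f1, which encodes the pluripotency factor Oct4 (chromosome 17, 35506032 to 35510777), had 37, 32, 19, 61 and 30 in the same order, and the ES files held 0 to 14 of them each. Pou2f2, a gene of B cell regulation (chromosome 7, 25087350 to 25180797), had 69, 46, 48, 25 and 55. Its median per 10000 reads was 6.03 from Pou3f3 and 1.23 to 3.57 from the other viewpoints. The ranges per 10000 reads overlapped between all viewpoints for these 3 genes. Pou2f3, Pou4f1, Pou1f1 and Pou6f1 had 41, 6, 5 and 4 reads over all files, and 2 POU genes had 0, where a count of 0 allows up to 3 reads.

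From Sox2 the SOX genes gave a sparser picture. Sox1, a close relative of Sox2 (chromosome 8, 12395519 to 12399555), had 2 and 0 reads in ES, 1 and 24 in NSC, 4 and 10 in neurons, and 2 and 0 in N2a, and 0 in the 32 files of the other viewpoints. Sox21, which encodes a repressor expressed with them (chromosome 14, 118233233 to 118237030), had 12 and 2 in ES, 2 and 18 in NSC, 4 and 2 in neurons, and 0 and 0 in N2a. It had 4 reads from Pou3f3 in 2 libraries and 0 from the 3 other viewpoints. Sox15 (chromosome 11, 69655037 to 69656727) had 10 reads from Sox2 in 4 libraries and 0 elsewhere. Sox1 and Sox21 were thus each listed in 6 of the 8 Sox2 files, with low counts, and in 0 and 2 of the 32 others. The counts add neighbouring fragments. A single fragment had 21 of the 43 Sox1 reads, and another had 20 of the 40 Sox21 reads from Sox2.

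The remaining SOX genes had few reads or no such order. Sox5 had 449 reads from all 5 viewpoints, but it is a long gene, at 954 kb. Sox6, at 570 kb, had 190 reads from all 5, 94 of them from Pax6P0. The PAX genes had 3 to 104 reads each over all 40 files. Pax4, which acts in the endocrine pancreas, had 92 of its 99 reads from Sox2 in 3 libraries, 77 of them in ES 1, 8 in NSC 2 and 7 in N2a 2. Pax5, a B cell factor, had 56 of 104 from Pax6P1, 28 of them in NSC 2, 27 in neuron 2 and 1 in N2a 1. No PAX gene was listed in more than 12 files.

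**Figure D5:**
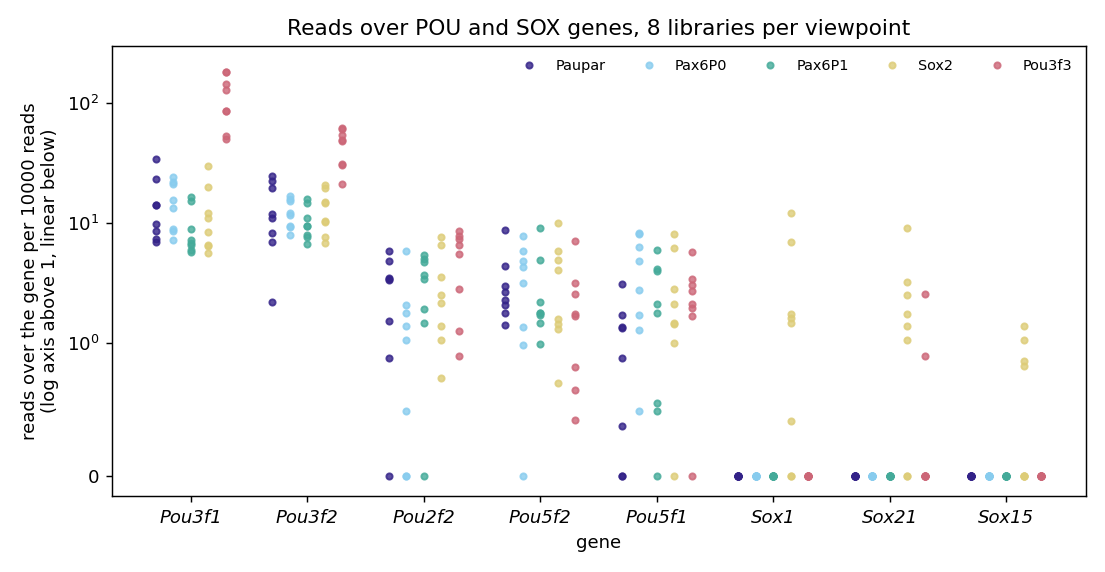
Reads over 8 genes per 10000 reads on chromosomes 4 to 19 (vertical axis, logarithmic above 1 and linear below), with a point for each of the 8 libraries of each viewpoint. Pou3f3 points lie apart from the rest at Pou3f1 (50.1 to 182) and higher at Pou3f2, and Sox1 and Sox15 have points above 0 from Sox2 alone.

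Each viewpoint also had fragments that recurred mainly in its own files, few among the 233810 distinct fragments. Fragments listed in at least 6 of a viewpoint's 8 libraries and in at most 2 files of the other viewpoints numbered 58 for Pou3f3, 43 for Pax6P1, 41 for Sox2, 39 for Pax6P0 and 38 for Paupar, at 20 to 34 sites each. For Paupar the site with the most reads lay in Brinp1, a gene of neuronal cell cycle control (chromosome 4, 68890780 to 68891815), with 80 reads in all 8 libraries. For Pax6P0 it lay 73253 bases from Dkk1, which encodes a Wnt antagonist (chromosome 19, 30471902 to 30472623), with 57 reads in all 8. For Pax6P1 it was the fragment in Dab1 described above. For Pou3f3 it lay in Nlrp1b, an inflammasome gene (chromosome 11, 71169940 to 71169950), with 58 reads in 7 libraries. For Sox2 it lay 4634 bases from Slc36a4, an amino acid transporter gene (chromosome 9, 15747022 to 15747900), with 25 reads in 6 libraries, 20 of them in N2a 1 and 1 in each of the 5 others. A fragment in Sox1 followed with 21 reads in 6 libraries, 12 of them in NSC 2 and 5 in neuron 2. Some had few reads: a fragment 9147 bases from Trit1 had 1 Pax6P1 read in each of the 8 libraries. These fragments were picked for their recurrence, and their numbers have no test. They belong to the fragments shared between files of one viewpoint described above, whose source was not tested.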

How the data were processed

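Contact libraries of 4 mouse cell types, 2 replicates each, were analysed in 40 files, 1 for each library and viewpoint. The values are deposited counts: the authors' files list, for each restriction fragment, its mm10 position and a whole number of reads, with no normalization found in the values. The submitters' processing notes name Trim Galore and Bowtie. Which enzyme was used, how reads were assigned to fragments, whether duplicates were removed and which caller was run is not given in the sources used here. Without molecular identifiers several reads can come from the same molecule, so read numbers overstate the precision.

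Counts on chromosomes 4 to 19 were summed per chromosome and per 5 Mb bin. Cell types were compared on library sums (viewpoints added) and viewpoints within files with the library as block, with edgeR 4.0.16 (glmQLFit, glmQLFTest, library totals as scale, limma 3.58.1, R 4.3.3) on features that passed a count minimum of 10, at a Benjamini-Hochberg adjusted p of 0.05. Each cell type or viewpoint was set against the mean of the others. The test was run on simulated counts, with a pass mark set at a smaller spread than the 26.5% fitted for bins between libraries. The simulated files were independent and held no shared fragments, so this does not show how the test performs on these data. Shares per file were compared with exact permutation tests. Alternatives were DESeq2 1.42.0, TMM factors, no count minimum, 2 and 10 Mb bins, runs of fragments at most 5 bases apart counted once, omission of the fragment with the most reads per file and bin, each library left out, and the replicate number as block. Named bins were the 10 with the smallest p among those called in a test over all groups, the 5 with the smallest p in each direction of a contrast, and the 5 with the highest and the 5 with the lowest mean share. The members, gene families and lists were chosen with earlier results of these data known. In the bins replicate numbers did not pair libraries: the correlations of same-numbered deviations were 0.0055 to 0.067. In the share of reads on chromosomes 4 to 19, replicate 1 was the higher in each of the 4 cell types. The permutation test of that share between cell types did not block by replicate number. The values of 1 gene of the POU family are not reported here.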

Additional observations from a re-analysis of the deposited data

Results flagged for a closer look

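Reads over relatives of the viewpoint genes also lay outside chromosomes 4 to 19, in data that the comparisons above did not use. Pou3f4, a POU gene of the X chromosome, had 613 reads, 150 from Pou3f3, 102 from Sox2, 118 from Paupar, 145 from Pax6P1 and 98 from Pax6P0. It was therefore listed from every viewpoint, and Pou3f3 was not apart from the rest there. Sox3, the SOX gene of the X chromosome, had 8 reads, all from Sox2 and in 2 libraries. The viewpoint genes were also listed from viewpoints on other chromosomes: Pou3f3 had 241 such reads, Pax6 145 and Sox2 108. A viewpoint gene can carry reads of its own capture in the same library, and the part of this in the counts was not tested. No sample of a control kind exists for these loci, so each was set against the 3 reads that a count of 0 allows. That is no background level: a run had 3.22 to 7.69 reads on average, so a single run can exceed it.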

How the results depend on the processing

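With runs in place of reads, 2 viewpoint pairs passed in place of 5, 0 bins differed by cell type, 16 differed in N2a, 5 of them shared with the 15, and 14 differed by viewpoint, 2 of them shared with the 5. Paupar then had 3 bins, Pax6P0 3, Sox2 5, Pou3f3 8 and ES 1, and chromosomes were called as 1 for ES, 2 for NSC, 1 for neurons and 6 by viewpoint. With DESeq2 the N2a bins were 24, those by viewpoint 8, Pou3f3 8, Sox2 2, Pax6P0 1 and the interaction 5, with 10 chromosomes by cell type and 4 for ES. Bins of 10 Mb gave 24 for N2a, 1 by viewpoint, 0 for Pax6P1 and 1 for Pou3f3. Bins of 2 Mb gave 0 by cell type, 8 for N2a, 3 by viewpoint and 2 for Pou3f3. TMM factors gave 1 bin for Pax6P1 and 0 chromosomes for NSC, and no count minimum gave 1 bin for Paupar. Without the fragment with the most reads per file and bin, Pax6P1 had 0 bins and 1 chromosome differed by viewpoint. Of the alternatives chosen after seeing the data, omission of fragments in at least 20 files gave 3 bins by viewpoint and 2 for Pou3f3, and keeping a fragment only in its top library gave 0, 0 for Pax6P1, 0 for Pou3f3 and 2 chromosomes for NSC. The cause of these moves was not tested.

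Leaving out each library in turn gave 0 to 4 viewpoint pairs and a cell type p of 0.590 to 1 in the exact permutation test. It gave 0 to 10 bins by cell type, 7 to 21 for N2a, 0 to 1 for ES and for NSC, 1 to 7 by viewpoint, 2 to 5 for Pou3f3, 0 to 2 for Pax6P1 and 0 to 4 for the interaction. Chromosomes ranged over 4 to 7 by cell type, 5 to 10 for N2a, 0 to 4 for ES, 0 to 2 for NSC and 0 to 2 by viewpoint. Signs turned for 1 called value and for values that were not called. The differences in share turned with runs to -3.01 points for Paupar minus Pou3f3, -3.07 for Pax6P0 minus Sox2 and, the called one, -2.52 for Pax6P1 minus Sox2. The N2a change of chromosome 5 turned to 0.055 with TMM and that of chromosome 7 to 0.027, and those of 13 and 19 turned to -0.024 and -0.076 with runs. On leaving out a library chromosome 5 ran from -0.056 to 0.0060, 7 from -0.17 to 0.061, 12 from -0.077 to 0.10, 13 from -0.020 to 0.043, and 19 from -0.0047 to 0.087 on the log2 scale. The replicate number as block gave 8 bins by cell type and 15 for N2a, 14 of them shared, and changed no count of called chromosomes. In edgeR's fits the spread between files beyond counting error was a coefficient of variation of 53.1% for a bin and 11.6% for a chromosome, and the part of depth in it was not tested.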
